A study of Mus musculus with 3 samples.

Results

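The transcripts of the DNAJ co-chaperone family were examined for their association with the RNA-binding protein YTHDF2 in mouse embryonic stem cells (ESCs). Members were taken by name, as every gene symbol of the count table made of Dnaj, a class letter (a, b or c), a number and an optional further letter. Dnajc30 and names ending in -ps were left out. This gave 44 of the 49997 genes in the table, namely 4 of class A, 13 of class B and 27 of class C. All 44 are protein-coding genes, and all have the same start and end in RefSeq (GRCm38.p6, which mm10 is built on).

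DNAJ proteins, also called J-domain proteins or HSP40s, bring substrates to HSP70 chaperones and stimulate the HSP70 ATPase through their J domain. The class letter reflects domain make-up. Class A members share the whole layout of the bacterial protein DnaJ, class B members lack its zinc-binding region, and class C members share only the J domain and differ widely in the rest, so that many of them tie HSP70 to a single place or task. YTHDF2 is a cytoplasmic reader of N6-methyladenosine (m6A), and the RNA it binds is directed to decay.

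The data were 3 libraries of RNA immunoprecipitation sequencing (RIP-seq), namely 1 input library and 2 libraries of RNA recovered with an antibody to YTHDF2 (IP replicates 1 and 2). According to the labels all came from E14 mouse ESCs. The study describes the cell system as carrying a Dux transgene switched on by doxycycline (Dox) and a tdTomato reporter under the MERVL promoter. The design text of the series gives 24 h of Dox for these libraries, which moves ESCs toward a state like that of the 2-cell (2C) embryo. The input and both IP libraries share this treatment, so no untreated cells enter the comparison, and no library made with a control antibody was analysed here. Whether the IP libraries came from separate cultures is not stated, so p-values measure only the spread between these IP libraries, which may be technical, and the spread of the input was not measured.

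The counts summed to 36986994 for the input, 35259827 for IP replicate 1 and 35888743 for IP replicate 2, and a floor of 3 counts was between 0.0811 and 0.0851 CPM, which is the count scaled by the library total. The 8 ESC markers examined were all detected, at 456 to 1806 CPM each in the input. The summed level of 4 primitive endoderm markers lay between 8.81 and 14.9 CPM in the 3 libraries, that of 3 trophectoderm markers between 7.84 and 11.03 CPM, and that of 5 fibroblast markers between 21.2 and 32.4 CPM, with Col3a1 at 0 throughout. The 5 markers of the 2C-like state summed to 1675 CPM in the input and to 2771 and 2770 CPM in the IP libraries. In bulk libraries, fewer cells of a type and less RNA per cell cannot be told apart.

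Most DNAJ transcripts were well expressed. Levels of different genes were compared in TPM, which divides counts by the summed length of the merged exons and scales each library to the same total. The family summed to 2441 TPM in the input and to 2029 TPM in each IP library. The median input level of the tested members was 25.1 TPM, against 5.79 TPM over all genes tested. In the input 28 members exceeded 10 TPM and 4 lay under 1 TPM. Dnajc8, Dnaja1 and Dnajc2 together made up 37.3% of the family's input level.

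To determine which members came down with YTHDF2, edgeR's quasi-likelihood test was run on IP against input, with Benjamini-Hochberg adjustment over all 19601 genes tested. A transcript was called enriched or depleted at an adjusted p under 0.05 and a fold change over 2, and higher or lower at the same adjusted p with any fold change. Of the 44 members, 41 passed the filter on low counts. Enriched were 6 of these 41 (14.6%), against 15.0% of all genes tested, and depleted were 3 of 41 (7.32%), against 13.0%. The share of enriched members was thus close to that of all genes. At any fold change 11 members were higher in IP (28.4% of all genes tested were) and 17 were lower (28.9% of all genes tested were), and 13 members did not pass the test. The estimated dispersion rests on the IP libraries alone, and when it was set to 0.1 instead, 1 member was enriched (Dnajb3) and 2 were depleted (Dnajc12 and Dnajc24), while 8.05% of all genes tested were enriched and 7.81% depleted.

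The median log2 fold change of the 41 members was −0.05, with quartiles at −0.71 and 0.28, and over all genes tested it was 0.0063, with quartiles at −0.72 and 0.81. The sign of the members' median depended on the scaling. It was 0.048 when libraries were scaled by their totals and 0.099 when they were scaled to TPM, settings that moved the median of all genes up by 0.096 and 0.15. Relative to the median of all genes, the members' median was −0.05 under TMM and under both of these scalings. The members that passed the test all lay at least 0.17 from 0, farther than these shifts. Single members ranged from −2.84 for Dnajc12 to 3.24 for Dnajb3.

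Between the IP libraries, the log2 ratio of replicate 1 to replicate 2 varied with an SD of 0.178 over the 41 members and 0.143 over the 39 that averaged 100 counts or more. The largest gap between the IP libraries was 0.64, in Dnajc28.

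**Figure D1:**
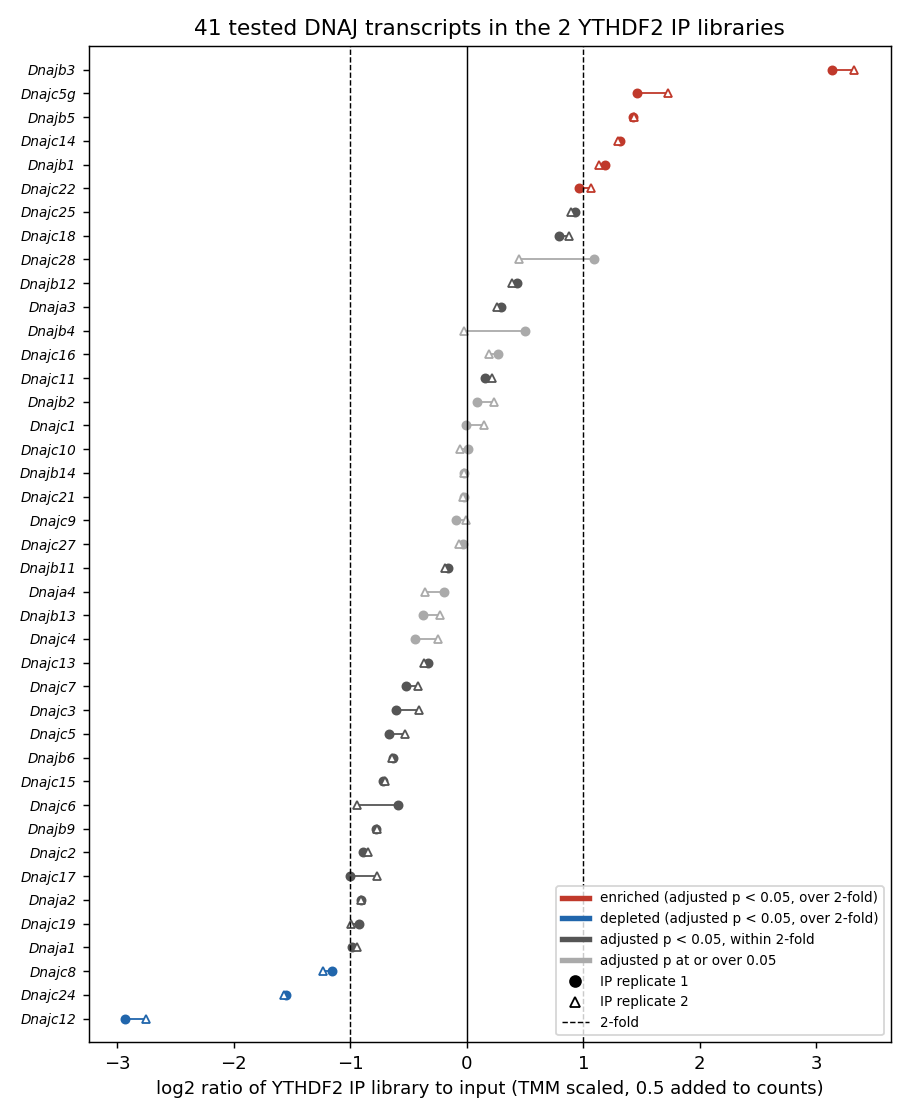
Log2 ratio of each YTHDF2 IP library to the input for the 41 tested DNAJ transcripts (x axis, TMM scaled, 0.5 added to each count), ordered by fitted log2 fold change, with filled circles for IP replicate 1, open triangles for IP replicate 2 and dashed lines at 2-fold. The 6 enriched members lie at the top, led by Dnajb3 at 3.13 and 3.32, the 3 depleted ones at the bottom, with Dnajc12 at −2.93 and −2.75, and the IP libraries lie close together for all but a few members such as Dnajc28 and Dnajb4.

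The sequences of the called members were then set side by side at a motif that m6A writers use. GGACT in DNA letters (GGACU in RNA) is a common form of the m6A consensus, and m6A is known to be dense near stop codons. The GGACT nearest the stop codon was therefore taken from the RefSeq transcript with the longest coding sequence (GRCm38.p6, read 5′ to 3′ along the mRNA, 10 bases on each side). Motifs whose 25-base stretch crossed an exon junction or an end of the transcript were passed over, so a nearer motif may exist. Capitals mark this nearest motif, the stretch of Dnajb3 holds a further GGACT in lower case, and distances run from the last base of the stop codon to the A of the motif. Enriched members come first and depleted members last.
Dnajb1, chr8:83610827-83610851, plus strand, 3′ UTR, 20 bases past the stop codon: cactcctcaaGGACTgagccagggg
Dnajb3, chr1:88204916-88204940, minus strand, 3′ UTR, 22 bases past the stop codon: tgtcttttaaGGACTatcaggactt
Dnajc22, chr15:99104511-99104535, plus strand, 3′ UTR, 28 bases past the stop codon: acttgaggatGGACTcagtcttgtc
Dnajc14, chr10:128818231-128818255, plus strand, 3′ UTR, 832 bases past the stop codon: agaccaggctGGACTccagattgca
Dnajb5, chr4:42957416-42957440, plus strand, coding, 123 bases before the stop codon: ccgtggggagGGACTtcccttcccc
Dnajc8, chr4:132553171-132553195, plus strand, 3′ UTR, 44 bases past the stop codon: cctgcttcacGGACTcattctctct
Dnajc24, chr2:105966799-105966823, minus strand, 3′ UTR, 153 bases past the stop codon: attacaagaaGGACTtgaataatat
Dnajc12, chr10:63407021-63407045, plus strand, coding, 268 bases before the stop codon: gaagtaagaaGGACTtgatgctgga

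Members that were neither enriched nor depleted held the motif as near, among them Dnajc16 (4 bases before the stop codon), Dnajc15 (10 bases past it) and Dnajb11 (17 bases past it). Dnajc18 was not searched. The remaining enriched member, Dnajc5g, held no GGACT in its exons. On the sense strand of the merged exons, 39 of the 41 tested members (95.1%) held at least 1 GGACT, against 93.1% of the tested protein-coding genes, and the exceptions were Dnajc5g and Dnajc21. The median density was 1.62 GGACT per kilobase in the 6 enriched members, 2.198 in the 3 depleted members and 1.04 in protein-coding genes. A match is a description of these letters only, and m6A was not measured in these libraries.

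Among the cytosolic members, 2 of 9 were enriched (15.0% of all genes tested were) and 4 more were lower in IP (28.9% of all genes tested were). Dnajb1 encodes the stress-inducible HSP40 that works with HSP70 in the heat shock response. It had 3480 input counts against 8084 and 7910 counts in IP replicates 1 and 2. Both IP libraries were above the input, with log2 ratios of 1.19 and 1.13, and the log2 fold change came to 1.16 ± 0.07 (SE) at an adjusted p of 5.3e-18. In TPM, Dnajb1 was the 14th most abundant member in the input, at 60.0, and the 2nd in each IP library, at 151.8 and 145.5. Its call was lost, with log2 fold changes of 0.90 and 0.89, when a trend of fold change on GC content or on exon density was removed.

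Dnajb5, which encodes a close relative of DNAJB1, had 754 input counts against 2069 and 2107 IP counts. The log2 ratios were 1.43 in both IP libraries, and the log2 fold change came to 1.43 ± 0.11 (SE) at an adjusted p of 1.36e-14. Dnajb4, a further relative in class B, had 290 input counts against 418 and 296 IP counts. Its IP libraries lay on either side of the input, with log2 ratios of 0.50 and −0.02, and it did not pass the test (adjusted p of 0.297).

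The main class A co-chaperones of the cytosol were lower in IP but within 2-fold. Dnaja1, whose protein serves the constitutive HSC70, had 15599 input counts against 8049 and 8412 IP counts. Its log2 fold change came to −0.96 ± 0.05 (SE) at an adjusted p of 4.34e-18, which put it just inside the fold threshold. It was −0.52 with the GC trend removed and −1.02 with the exon density trend removed. Dnaja2, which serves the same chaperone, had 8709 input counts against 4745 and 4794 IP counts, for a log2 fold change of −0.91 ± 0.06 (SE) at an adjusted p of 5.15e-16. Thus Dnaja1 and Dnaja2 lay below the input in both IP libraries, and Dnajb1 and Dnajb5 above it.

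Dnajb6, whose protein holds back aggregation of polyglutamine proteins, fell by 0.64 ± 0.06 (SE) on the log2 scale. Dnajc7, which encodes a TPR protein that binds both HSP70 and HSP90, fell by 0.47 ± 0.06 (SE), and 22.5% of its exonic bases overlap exons of Cnp and Nkiras2. Both were lower in each IP library, and Dnajc7 was placed in the cytosolic group after values were seen. Dnajb2, known for its ubiquitin-interacting motifs and its role in neurons, and Dnaja4, a sterol-responsive class A member, did not pass the test, at 0.16 ± 0.16 and −0.28 ± 0.30 (SE).

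Among the 10 members whose proteins work in or at the endoplasmic reticulum (ER), 1 was enriched, 2 more were higher, 3 were lower and 4 did not pass the test, with a median of 0.03. Over all genes tested, 15.0% were enriched, 28.4% were higher at any fold change and 28.9% were lower. Dnajc14 was placed in this group after values were seen. It encodes a membrane protein known for its part in the export of dopamine receptors from the ER. It had 2964 input counts against 7525 and 7533 IP counts, and its log2 ratios were 1.31 and 1.30. The log2 fold change came to 1.31 ± 0.07 (SE) at an adjusted p of 2.76e-19. Exons of Ormdl2 and Tmem198b overlap 16.9% of the exonic bases of Dnajc14, and reads over exons of more than 1 gene were left out of the counts.

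The other ER members lay within 2-fold. Dnajc18, which encodes an ER membrane protein, had 880 input counts against 1555 and 1670 IP counts, for a log2 fold change of 0.83 ± 0.11 (SE) at an adjusted p of 2.78e-08. Dnajb12 and Dnajb14 encode related ER membrane proteins that take part in the degradation of misfolded proteins. Dnajb12 was higher in IP, at 0.41 ± 0.09 (SE) with an adjusted p of 9.86e-05, while Dnajb14 did not pass the test, at −0.02 ± 0.11 (SE).

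Several ER members are co-chaperones of BiP, the HSP70 protein of the ER. Dnajb9 (ERdj4), induced by the unfolded protein response, had 1486 input counts against 886 and 903 IP counts and fell by 0.77 ± 0.11 (SE) on the log2 scale. Dnajc3 (P58IPK) fell by 0.51 ± 0.09 (SE), and Dnajb11 (ERdj3) fell by 0.17 ± 0.06 (SE), with adjusted p of 1.41e-05 and 0.0203. Dnajc10 (ERdj5), a disulfide reductase, and Dnajc1 (ERdj1) did not pass the test, at −0.02 ± 0.07 and 0.07 ± 0.12 (SE), nor did Dnajc16, an ER membrane protein, at 0.23 ± 0.11 (SE).

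The 5 mitochondrial members held 0 enriched and 0 depleted transcripts, a number of members too small to set against the 15.0% and 13.0% of all genes tested. Dnaja3 (TID1), the class A co-chaperone of the mitochondrial matrix, had 3485 input counts against 4365 and 4319 IP counts and was slightly higher, at 0.28 ± 0.07 (SE) with an adjusted p of 8.05e-04. Dnajc11, associated with the inner membrane organising complex, was higher as well, at 0.19 ± 0.06 (SE) with an adjusted p of 0.0098. The members tied to the protein import motor went the other way. Dnajc19 (TIM14) had 2312 input counts against 1243 and 1200 IP counts, for a log2 fold change of −0.96 ± 0.10 (SE) at an adjusted p of 3.84e-11. With the GC trend removed it was −0.33, and with the exon density trend removed −1.10, past 2-fold. Dnajc15 (MCJ), a vertebrate relative of Dnajc19, fell by 0.71 ± 0.12 (SE), with an adjusted p of 1.51e-06. Dnajc4 did not pass the test, at −0.34 ± 0.18 (SE).

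The transcripts for proteins of the nucleus and the ribosome were the group with no member above 0 under TMM scaling. Over all genes tested, 9763 of 19601 lay below 0 under this scaling. Dnajc21 and Dnajc9 lay nearer to 0 than the shifts of the other scalings. Dnajc8, whose protein associates with the spliceosome, was the most abundant DNAJ transcript in every library, at 502 TPM in the input and 251 and 236 TPM in the IP libraries. It had 12566 input counts against 5763 and 5535 IP counts, with log2 ratios of −1.15 and −1.23. The log2 fold change came to −1.19 ± 0.06 (SE) at an adjusted p of 6.23e-20. After the removal of a trend on exon density it was −0.82 and no longer past 2-fold.

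Dnajc2 (MPP11), the J protein that acts at the ribosome with the HSP70 protein HSPA14, was the third most abundant member, at 166 TPM in the input. It had 6414 input counts against 3539 and 3697 IP counts, for a log2 fold change of −0.87 ± 0.06 (SE) at an adjusted p of 1.67e-14. With the exon density trend removed it was −0.37. Dnajc17, linked to splicing, had 658 input counts against 334 and 399 IP counts and fell by 0.88 ± 0.16 (SE). Its log2 ratios were −1.01 and −0.77, so that IP replicate 1 alone was past 2-fold. By contrast Dnajc21, needed for maturation of the large ribosomal subunit, and Dnajc9, a histone chaperone, did not pass the test, at −0.03 ± 0.06 and −0.05 ± 0.07 (SE).

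Of the 5 members of vesicles and endosomes, 1 was enriched, 3 were lower and 1 was not tested, beside 15.0% enriched and 28.9% lower over all genes tested. Dnajc5 encodes the cysteine string protein of synaptic vesicles, and Dnajc5b and Dnajc5g are its paralogs. Dnajc5 had 3900 input counts against 2503 and 2789 IP counts and fell by 0.60 ± 0.08 (SE) on the log2 scale. Dnajc5g went the other way, from 35 input counts to 99 and 121 IP counts. Its log2 ratios were 1.46 and 1.72 and its log2 fold change came to 1.61 ± 0.41 (SE) at an adjusted p of 0.00103, on an input level of 1.22 TPM. Dnajc5b had 6, 0 and 4 counts in the input and IP replicates 1 and 2 and was not tested.

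Dnajc6 (auxilin), which uncoats clathrin vesicles, had 505 input counts against 343 and 272 IP counts and fell by 0.75 ± 0.18 (SE). Dnajc13 (RME-8), which acts in endosomal sorting and has 59 merged exons, the most of any member, fell by 0.35 ± 0.07 (SE), with an adjusted p of 3.94e-05.

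Among the 4 members grouped as known mainly from testis, a grouping that need not be complete, Dnajb3 had the highest fold change of the family. It had 49 input counts against 442 and 513 IP counts, or 2.68, 26.3 and 29.9 TPM. Both IP libraries were far above the input, with log2 ratios of 3.13 and 3.32. The log2 fold change was 3.24 ± 0.25 (SE), a 9.45-fold difference, at an adjusted p of 5.16e-14. From 37th place among the members in the input, Dnajb3 reached 20th and 18th place in the IP libraries.

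Dnajb3 is a gene of 1 exon (chr1:88204732-88205748, minus strand, mm10) that lies within the span of 8 Ugt1a genes on the plus strand, without overlap of exons. Reads from an unspliced Ugt1a transcript would fall on Dnajb3 and could not be told apart from its own, since strand was not used in the counting. The exons of these 8 genes held few reads, with counts of 0 for 6 of them in every library, 2, 0 and 0 for Ugt1a6a and 6, 0 and 3 for Ugt1a6b in the input and IP replicates 1 and 2. Reads over exons that these genes share were left out of the table, so these counts cover only what belongs to 1 gene. Of the 510 tested protein-coding genes with 1 exon, 34.1% were enriched. Their median log2 fold change was 0.75, with quartiles at −0.04 and 1.67.

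Of the other testis members, Dnajb13, linked to the radial spokes of sperm flagella and cilia, was at 12.7 TPM in the input. It had 279 input counts against 219 and 246 IP counts and did not pass the test, at −0.30 ± 0.22 (SE). Dnajb7 had 0, 0 and 6 counts and Dnajb8 had 0, 0 and 2 counts in the input and IP replicates 1 and 2, and neither was tested. Like Dnajb3, both consist of 1 exon.

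The remaining 6 members, which have other or less well known roles, ranged from −2.84 to 1.02. Dnajc12, whose protein is a co-chaperone of the aromatic amino acid hydroxylases, was the most depleted member. It had 399 input counts against 53 and 61 IP counts, or 16.3, 2.35 and 2.65 TPM. Both IP libraries were far below the input, with log2 ratios of −2.93 and −2.75, and the log2 fold change was −2.84 ± 0.27 (SE), 7.18-fold lower, at an adjusted p of 6.6e-12. Dnajc24 (DPH4), needed for the diphthamide modification of elongation factor EEF2, had 502 input counts against 174 and 175 IP counts. Its log2 fold change came to −1.56 ± 0.20 (SE) at an adjusted p of 1.11e-08.

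Dnajc22, which encodes a membrane protein, had 140 input counts against 279 and 305 IP counts. With log2 ratios of 0.96 and 1.07 it lay at the fold threshold, and its log2 fold change came to 1.02 ± 0.24 (SE) at an adjusted p of 3.84e-04. Its call was lost without IP replicate 2, at 0.97, and with the GC or exon density trend removed, at 0.78 and 0.91. With the dispersion set to 0.1 its adjusted p from edgeR was 0.241. Dnajc25 lay just below the threshold, with 450 input counts against 873 and 865 IP counts and a log2 fold change of 0.91 ± 0.14 (SE) at an adjusted p of 5.4e-07. Dnajc28 had 60 input counts against 131 and 85 IP counts. Its IP libraries differed, with log2 ratios of 1.09 and 0.45, and it did not pass the test, at 0.81 ± 0.39 (SE) with an adjusted p of 0.0734. Dnajc27, which joins a J domain to a small GTPase, did not pass it either, at −0.05 ± 0.13 (SE).

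**Figure D2:**
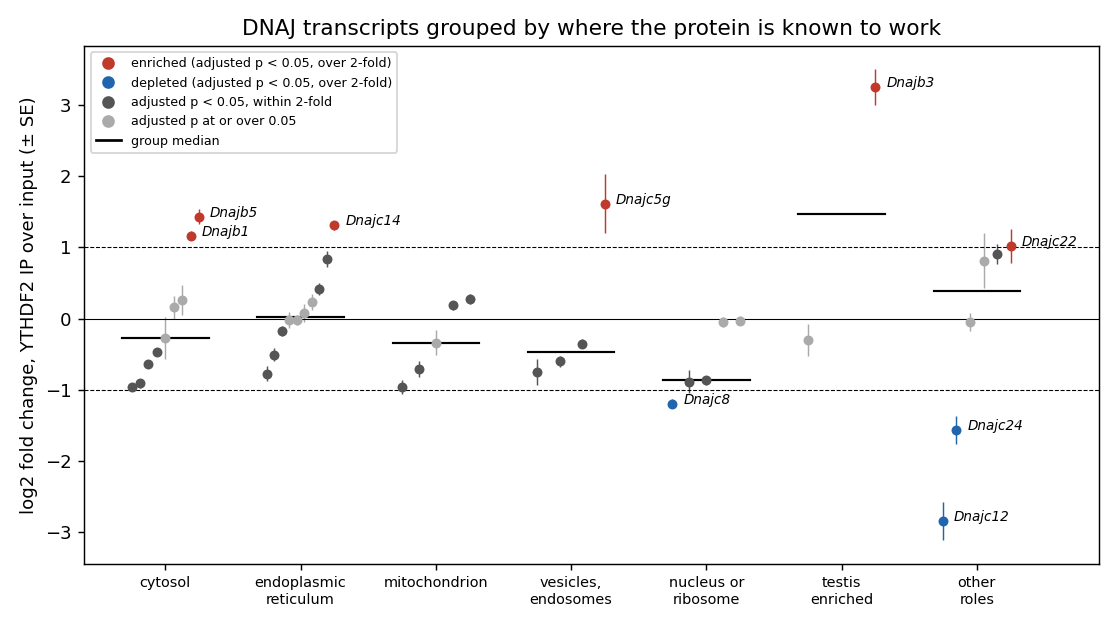
Fitted log2 fold change of YTHDF2 IP over input with its SE (y axis) for the 41 tested DNAJ transcripts, grouped by where the protein is known to work (x axis), with horizontal bars at group medians and dashed lines at 2-fold. The 5 members of the nucleus or ribosome all lie below 0 under TMM scaling, Dnajc21 and Dnajc9 by less than the shifts of the other scalings, with a median of −0.87, the 10 ER members centre near 0, and the 6 members with other roles span −2.84 to 1.02. Over all genes tested, 9763 of 19601 lie below 0.

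By class, the 4 class A members had a median log2 fold change of −0.59 with none called, the 11 tested class B members a median of 0.16 with 3 enriched and none depleted, and the 26 tested class C members a median of −0.19 with 3 enriched and 3 depleted. Of all genes tested 15.0% were enriched and 13.0% depleted, and no test compared the classes. Class B members also had fewer exons per length. Their median was 1.61 merged exons per kilobase of exonic sequence, against 2.92 in class A and 3.80 in class C.

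**Figure D3:**
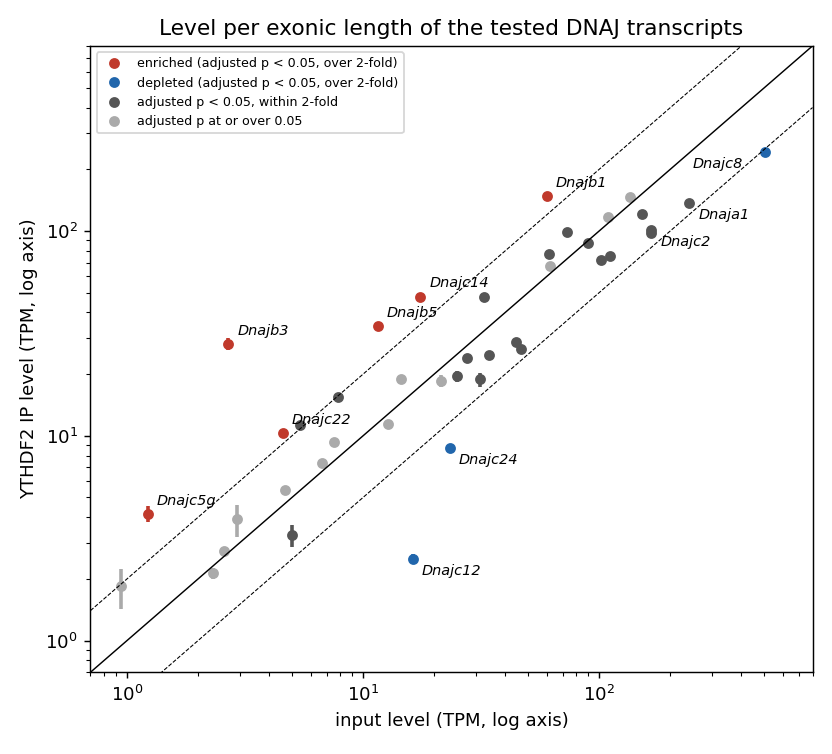
Level of each tested DNAJ transcript in the YTHDF2 IP libraries (y axis, mean of both in TPM, bars from one IP library to the other) against the input (x axis, TPM), on log axes, with a solid line at equal level and dashed lines at 2-fold. Dnajc8 at 502 TPM in the input is the most abundant member and lies at the lower 2-fold line, Dnajb1 rises from 60.0 TPM to about the level of the most abundant others, and Dnajb3 and Dnajc12 lie farthest from the line of equal level.

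The members were also compared by exon structure, taken from the merged exons of the count table. Members with the fewest exons for their length had higher fold changes than members with the most. The 6 enriched members had a median of 1.31 exons per kilobase, the 3 depleted members 4.40 and the tested protein-coding genes 2.87. Of the 10 tested members under 1.5 exons per kilobase, 4 were enriched (Dnajb1, Dnajb3, Dnajb5 and Dnajc14), none was depleted, and the median log2 fold change was 0.54. Of the 10 tested members over 5 exons per kilobase, none was enriched, 1 was depleted (Dnajc8), all 10 had a fitted value below 0 under TMM scaling (Dnajc10 and Dnajc21 by less than the shifts of the other scalings), and the median was −0.41.

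Over all protein-coding genes the medians fell with each step in exon density. Of the 3461 tested protein-coding genes under 1.5 exons per kilobase, 27.4% were enriched, 7.22% were depleted and the median was 0.53. Of the 2860 over 5 exons per kilobase, 4.27% were enriched, 17.1% were depleted and the median was −0.39. A fitted value below 0 was found in 1968 of these 2860 genes. In these outer bins the medians of the members lay close to those of protein-coding genes. In the bins between, the members' medians were −0.28 for the 11 members from 1.5 to 3 and −0.11 for the 10 members from 3 to 5 exons per kilobase, against 0.12 and −0.12 in protein-coding genes, so that the members did not share the steady order in the middle. Single members departed from it, among them Dnajc5g, enriched at 3.77 exons per kilobase, Dnaja3, higher at 4.53, and Dnajb9 and Dnajc5, which fell at 1.61 and 1.41.

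Across the 41 members, the Spearman correlation of log2 fold change with exons per kilobase was −0.47, and it was −0.44 across the 40 with several exons and −0.28 across 15201 protein-coding genes. With the number of exons alone it was −0.20 across the members and −0.27 across protein-coding genes. With GC content it was 0.39 and 0.36, and with the density of GGACT −0.01 and 0.16. These values are across genes measured in the same 3 libraries, which are not independent replicates, and exons per kilobase depends on length. The enriched members had a median GC content of 53.8%, the depleted ones 46.7% and protein-coding genes 50.4%. The part of GC content and exon structure in the members' values was not tested beyond the removal of each trend.

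**Figure D4:**
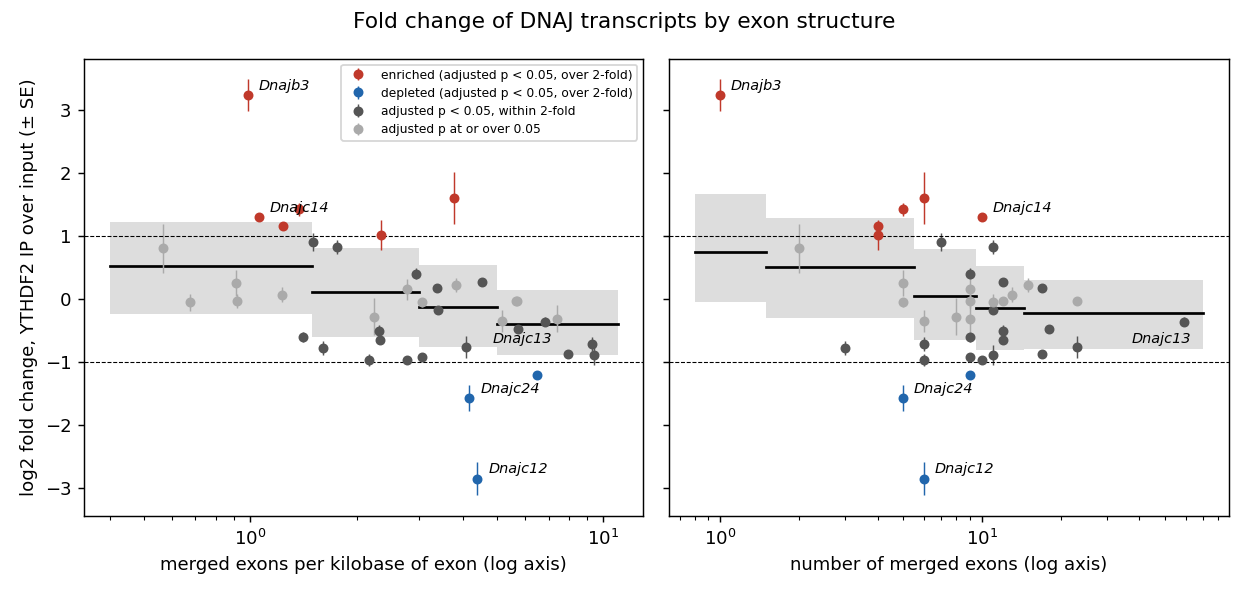
Fitted log2 fold change with its SE (y axis) of the 41 tested DNAJ transcripts against merged exons per kilobase (left) and the number of merged exons (right), both on log axes. Grey boxes and black lines give the quartiles and the median of tested protein-coding genes in each bin, dashed lines mark 2-fold, and the 10 members over 5 exons per kilobase all lie below 0 under TMM scaling, Dnajc10 and Dnajc21 by less than the shifts of the other scalings. Of the 2860 tested protein-coding genes in that bin, 1968 lie below 0.

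The other parts of the HSP70 machine were described from a list of 32 genes, all tested, made of 15 HSP70 proteins, 10 nucleotide exchange factors, 4 J-domain proteins with other names and 3 adaptors. Enriched were 4 of the 32 (12.5%, against 15.0% of all genes tested) and depleted were 2 (6.25%, against 13.0%). At any fold change 11 were higher, 15 were lower and 6 did not pass the test, with 28.4% and 28.9% of all genes tested higher and lower, and the median was −0.16. With the dispersion set to 0.1 the list held 0 enriched genes and 1 depleted gene, against 8.05% and 7.81% of all genes tested. With the GC trend removed it held 6 depleted genes, against 11.5% of all genes tested. The enriched members were Bag5 (log2 fold change 1.60), Bag3 (1.42) and Grpel2 (1.27), which are exchange factors that release nucleotide from HSP70, and the HSP70 relative Hspa12b (1.30). Hspa12b had only 39 input counts against 94 and 104 IP counts, with an SE of 0.42. The depleted members were St13 (−1.46), the adaptor HIP, and Bag6 (−1.35), a BAG-domain protein that handles mislocalised membrane proteins. Bag6 was also listed among the 10 exchange factors, of which 5 were higher and 4 lower in IP at any fold change. The constitutive Hspa8 had 102098 input counts against 97044 and 103635 IP counts and did not pass the test, at −0.07 ± 0.04 (SE).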

How the data were processed

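The series held RIP-seq libraries of E14 mouse ESCs (1 input, 2 YTHDF2 IP), grouped by title. Labels describe Trizol-extracted total RNA used in the IP, whereas the study's methods describe an IP from cleared lysate. Per the submitters' processing notes the authors used fastp 0.19.4, HISAT2 2.2.1 (mm10) and DESeq2 1.40.2. The deposited values are raw counts over RefSeq exons from featureCounts 2.0.3, run per the file headers without strand, with mates counted singly and with reads of several places or genes left out by default. Columns of other samples numbered 0.

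IP was tested against input with edgeR 4.0.16 in R 4.3.3 (filterByExpr, TMM factors 0.957, 1.02 and 1.02, robust glmQLFit, glmQLFTest), with 1 residual degree of freedom per gene and a common dispersion of 0.00538. The SE is the size of the log2 fold change over the root of F. Single-library ratios had 0.5 added to each count. TPM, exon numbers, GC content and GGACT used merged exons on the main chromosome, with GRCm38.p6 sequence from RefSeq. Full statistics went to called members, the 3 most abundant members and the 2 nearest each fold threshold. Members and lists were chosen with earlier results of these data known, and the grouping by place was set by general knowledge and amended for Dnajc7 and Dnajc14 after values were seen. Alternatives included DESeq2 1.42.0, other scalings, no filter, a fixed dispersion of 0.1, halved counts and removal of GC or exon density trends (lowess span 0.3).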

Additional observations from a re-analysis of the deposited data

How the results depend on the processing

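The count of 6 enriched DNAJ members was 6 with DESeq2 size factors, without the filter, with halved counts, with DESeq2 and without the robust option (the last chosen after seeing the data), 7 with library totals or TPM scaling, which added Dnajc25, and 6 with the GC trend removed, where Dnajc25 and Dnajc28 took the place of Dnajb1 and Dnajc22. It was 4 with the exon density trend removed, without Dnajb1 and Dnajc22, and 1 (Dnajb3) at a fixed dispersion of 0.1. Among all 19601 genes tested, 2936 were enriched in the main fit, and 3304 and 3538 with library totals and TPM scaling. There were 2630 and 2629 with the GC and exon density trends removed, and 1577 at the fixed dispersion. The 3 depleted members became 2 at that dispersion (Dnajc12 and Dnajc24), 4 with the GC trend removed (Dnajc17 added) and 5 with the exon density trend removed, which added Dnaja1, Dnajb9 and Dnajc19 and lost Dnajc8. Over all genes tested, 2543 were depleted in the main fit and 1531 at that dispersion. With the GC and exon density trends removed, 2246 and 2497 were depleted. Dnajb3, Dnajc12 and Dnajc24 kept their calls under all 12 alternatives. At the fixed dispersion the adjusted p was 0.165 for Dnajb1, 0.0834 for Dnajb5, 0.115 for Dnajc14, 0.241 for Dnajc22, 0.0691 for Dnajc5g and 0.112 for Dnajc8. In the HSP70 list, the fixed dispersion left 0 enriched and 1 depleted. The 4 enriched genes of the list became 3 with DESeq2 and with the GC or the exon density trend removed. Depleted in the list were 6 and 4 with the GC and exon density trends removed. The median of the members, −0.048, reversed to 0.048 with library totals and to 0.099 with TPM scaling, and was −0.024 without the filter, −0.080 with the GC trend and −0.095 with the exon density trend removed. Leaving out each IP replicate, with fold as the only criterion since no test was left, gave medians from −0.088 to −0.068, 6 enriched members each time and 3 to 4 depleted ones, and 4 enriched and 2 to 3 depleted genes of the HSP70 list. Without IP replicate 2, Dnajc22 left the enriched members and Dnajc28 joined them, and Dnajc17 joined the depleted ones. The causes of these changes were not tested. No paired analysis was possible because the input is 1 library and shares at most 1 replicate number with the IP libraries. Dnajb7, Dnajb8 and Dnajc5b had too few counts for a test, and the single input limits every fold change.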
